A study of Mus musculus with 2 samples.

Results

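Distal peaks found with the SRCAP antibody alone were the peaks of the SRCAP antibody library on chromosomes 1 to 19 that shared no base with a peak of the GFP antibody library and whose midpoint lay outside the window from 1000 bp upstream to 500 bp downstream of every GENCODE vM21 transcription start site (TSS) on GRCm38. There were 8991 such peaks among the 28167 of the SRCAP list and the 56885 of both lists. Of the 19190 distal peaks of the SRCAP list on these chromosomes they made up 46.9%, and the other 10199, called shared distal here, overlapped a GFP peak. The 9579 GFP-only distal peaks and the 2826 SRCAP-only peaks inside promoter windows served for comparison.

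SRCAP is the ATPase of a remodelling complex that places the histone variant H2A.Z into nucleosomes, and H2A.Z is known from active and poised promoters, enhancers and the nucleosomes beside CTCF sites. CTCF is a zinc finger protein that binds insulators and anchors chromatin loops, and REST is a zinc finger repressor that keeps neuronal genes off in other cells. In CUT&RUN a nuclease tethered to an antibody cuts next to the bound protein, and the released fragments pile up as peaks. Both libraries came from SYAT cells, a CGR8 mouse embryonic stem cell line with YPet-AID fused to both Srcap alleles and with the OsTir1 receptor stably expressed. YPet is a yellow fluorescent protein that GFP antibodies bind, AID is a degron that acts through OsTir1 when auxin is given, and cells were kept in auxinole, an OsTir1 inhibitor, at 200 nM by the labels, while the methods text gives the same figure in micromolar. The labels do not say how the cells of each library were treated. For each library 100000 cells were fixed in 0.1% formaldehyde for 5 min, the antibody was diluted 50-fold, and inserts of 250 bp were read as pairs of 75 nt. There was 1 library per antibody, so no difference below has a replicate check, and intervals (95%) cover counting error only. The lists hold no read counts, so depth is unknown. The GFP library is CUT&RUN by its labels, while the methods text names the SRCAP antibody alone for that assay.

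The sequences with the clearest pattern are shown first. An exact CTCF consensus was found far more often at these peaks than in the surrounding genome, and the peaks of highest score that held one (midpoint outside UTRs) are given on the strand of the site, on GRCm38, with the consensus match in capitals.
chr5:15600521-15600580, minus strand, intron of Gm21847, score 323: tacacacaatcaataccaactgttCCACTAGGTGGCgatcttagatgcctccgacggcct
chr14:5969420-5969479, plus strand, intergenic near Gm3248, score 247: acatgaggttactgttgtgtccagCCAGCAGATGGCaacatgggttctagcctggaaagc
chr8:47370891-47370950, minus strand, intron of Stox2, score 194: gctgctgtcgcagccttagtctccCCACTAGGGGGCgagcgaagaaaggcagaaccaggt
chr8:106887967-106888026, plus strand, intron of Chtf8, score 172: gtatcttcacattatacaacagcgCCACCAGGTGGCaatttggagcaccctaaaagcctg
chr12:105427573-105427632, minus strand, intergenic near D430019H16Rik, score 122: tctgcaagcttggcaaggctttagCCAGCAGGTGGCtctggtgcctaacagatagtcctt
chr5:144051422-144051481, plus strand, intergenic near Ocm, score 122: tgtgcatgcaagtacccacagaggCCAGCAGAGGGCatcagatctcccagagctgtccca

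REST sites were rarer. The 6 peaks of highest score that held an exact REST consensus, which is longer and carries a gap of free bases between its arms, are shown in the same way.
chr14:63713280-63713339, plus strand, intron of Xkr6, score 105: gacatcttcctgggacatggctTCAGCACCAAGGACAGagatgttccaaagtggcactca
chr7:4620151-4620210, minus strand, intergenic near Tmem86b, score 74: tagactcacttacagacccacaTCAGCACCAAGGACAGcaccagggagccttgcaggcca
chr8:14072706-14072765, plus strand, intron of Erich1, score 74: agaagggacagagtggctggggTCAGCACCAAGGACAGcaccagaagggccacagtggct
chr7:44770174-44770233, plus strand, intron of Vrk3, score 67: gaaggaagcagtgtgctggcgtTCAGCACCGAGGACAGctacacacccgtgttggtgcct
chr8:23063544-23063603, plus strand, intron of Ank1, score 62: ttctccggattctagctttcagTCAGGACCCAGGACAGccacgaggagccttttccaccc
chr11:83421465-83421524, minus strand, intergenic near Gas2l2, score 53: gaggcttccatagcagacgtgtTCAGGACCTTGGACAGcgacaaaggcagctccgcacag

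The SRCAP-only distal peaks were narrow and mostly of low score. Their median width was 206 bp (interval 205 to 208), against 291 bp for shared distal peaks, 246 bp for GFP-only distal peaks and 224 bp for SRCAP-only promoter peaks. The authors' score, a whole number with a minimum of 13 and no stated meaning, had a median of 34 with quartiles of 23 and 47, against 57 (38 and 87) for shared distal peaks of the same list. Of the peaks, 268 scored over 100 and 35 over 200, and 29.9% reached the median score of the whole SRCAP list, against 64% of the shared distal peaks. The rule left out the peaks that also reached the GFP list, and these scored higher, so the low scores are not independent of the rule. Its part in them was not tested.

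Few of these peaks had a called GFP peak close by. Without read counts, GFP signal too weak to be called cannot be seen, so distance to a called peak does not show its absence. The nearest GFP peak lay over 1 kb away for 8279 of them (92.1%, interval 91.5 to 92.6), over 50 kb away for 2334 (26.0%), and at a median of 18792 bp. Distal sequence outside GFP peaks was itself over 1 kb from a GFP peak at 98.2% of positions and over 50 kb away at 52.2%. The SRCAP-only distal peaks thus lay closer to GFP peaks than distal sequence did. Of GFP-only distal peaks, 90.3% lay over 1 kb from a peak of the SRCAP list. At the borders of the rule, 145 peaks had a GFP peak under 100 bp away and 3 touched one end to end. Their median score was 34, and that of the 49 shared distal peaks that overlapped a GFP peak by 1 to 20 bp was 32. A further 133 peaks lay within 100 bp outside a promoter window (median score 34), beside 147 SRCAP-only promoter peaks within 100 bp inside one (median score 34).

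Against the genome, the peaks leaned towards genes, exons and TSSs. Introns held 4340 of the midpoints (48.3%, against 43.2% of distal bases) and intergenic sequence 3946 (43.9% against 52.8%). Coding exons held 282 (3.14%, interval 2.80 to 3.52), against 1.16% of distal bases and 2.11% of shared distal peaks, a difference of 1.03 percentage points from the latter (interval 0.576 to 1.49). The share in coding exons among GFP-only distal peaks was 2.51%. The median distance to the nearest TSS was 10014 bp, and 8.41% of the peaks lay under 1.5 kb from a TSS against 4.28% of distal positions, while 3.80% lay over 100 kb away against 9.78%. Under 1.5 kb from a TSS lay 7.53% of shared and 9.74% of GFP-only distal peaks, whose median distances were 9884 and 8936 bp. The intergenic share minus that of shared distal peaks was -4.52 points (interval -5.93 to -3.11). Against GFP-only distal peaks it was -0.949 points (interval -2.38 to 0.481).

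Base composition set these peaks apart from the genome and from promoters, and hardly from the other distal peaks. The median GC content of the 500 bp at the midpoint was 48.6% (interval 48.4 to 48.8), against 48.8% for shared distal peaks, 47.4% for GFP-only distal peaks, 57.0% for SRCAP-only promoter peaks and 41.6% for all distal windows. GC content was local: in 200 bp the median was 50.0%, and 1 kb to either side it was 45.0%. Windows with at least 55% GC and an observed over expected CpG ratio of at least 0.65, a mark of CpG islands, were seen at 156 peaks (1.74%, interval 1.49 to 2.03). The share was 1.67% for shared distal, 0.908% for GFP-only distal and 37.2% for SRCAP-only promoter peaks, and 0.107% for distal windows. CpG-rich sequence was therefore scarce at these peaks, though commoner than at GFP-only distal peaks by 0.827 points (interval 0.50 to 1.16).

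Exact motif matches were counted on both strands in the 200 bp at each midpoint, and the reference was the share of all distal windows of 200 bp, weighted to the GC content of the class. CTCF was found at 405 of the 8991 peaks (4.50%, interval 4.09 to 4.95), against a GC-weighted genome share of 0.182% and a share of 0.161% in windows 1 kb to either side, which is 24.7-fold over the genome (interval 22.5 to 27.2). Shared distal peaks held one in 2.95% (16.5-fold), GFP-only distal peaks in 1.80% (11.6-fold) and SRCAP-only promoter peaks in 1.70% (6.55-fold). The excess of SRCAP-only distal over shared distal peaks was 1.55 points (interval 1.02 to 2.10), and over GFP-only distal peaks 2.71 points (interval 2.21 to 3.22). In 500 bp the shares were 7.74, 5.90 and 4.96% for SRCAP-only, shared and GFP-only distal peaks. The ratio to shared distal peaks was 1.31 in 500 bp against 1.53 in 200 bp, and that to GFP-only distal peaks 1.56 against 2.51.

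**Figure D1:**
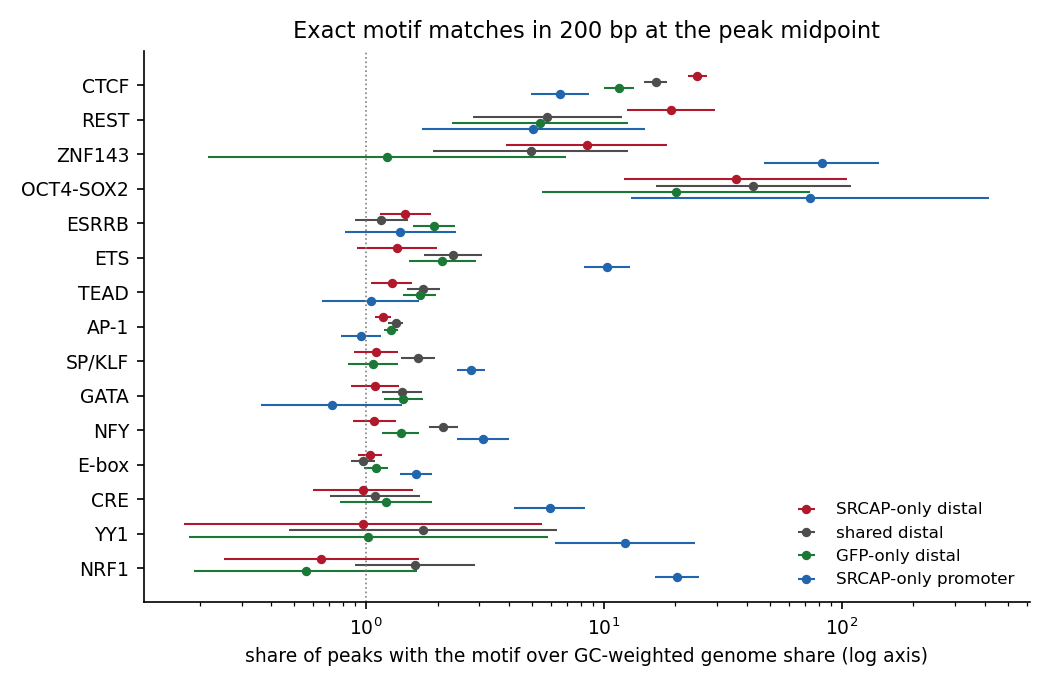
Share of peaks with an exact motif match in 200 bp at the midpoint, divided by the share of all distal windows weighted to the same GC content (log axis), for 15 motifs and 4 peak classes. Bars are 95% Wilson intervals of the share and the dotted line marks the genome level. CTCF lies at 24.7-fold and REST at 19.1-fold for SRCAP-only distal peaks. NRF1 lies at 20.3-fold for SRCAP-only promoter peaks and below the line for SRCAP-only distal ones, where its interval includes the line.

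Peak width was related to the CTCF difference. Among peaks of at most 200 bp, 3.69% of SRCAP-only and 3.68% of shared distal peaks held a CTCF site, while GFP-only distal peaks did in 0.730%. Over 200 and up to 300 bp the shares were 5.05% (interval 4.37 to 5.84) for SRCAP-only and 3.42% (2.87 to 4.07) for shared distal peaks, and over 300 bp they were 5.57% (4.49 to 6.90) and 2.32% (1.93 to 2.78). In this 200 bp window, the difference from shared distal peaks thus lay among peaks over 200 bp wide. The difference from GFP-only distal peaks was seen in all 3 ranges of width. The window was the same at all widths, so the outer parts of wide peaks were not searched.

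The CTCF share rose with the score of SRCAP-only distal peaks. It was 3.17% (interval 2.66 to 3.76) at scores of 13 to 29, 4.44% (3.69 to 5.35) at 30 to 46, 6.64% (5.63 to 7.81) at 47 to 74 and 6.10% (4.55 to 8.15) at 75 and over. Shared distal peaks showed no such rise, with 2.93, 2.77, 3.5 and 2.53%, and for GFP-only distal peaks the values were 2.18, 1.73, 1.54 and 0.940%. Peaks with a CTCF site had a median score of 40, against 34 without.

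**Figure D2:**
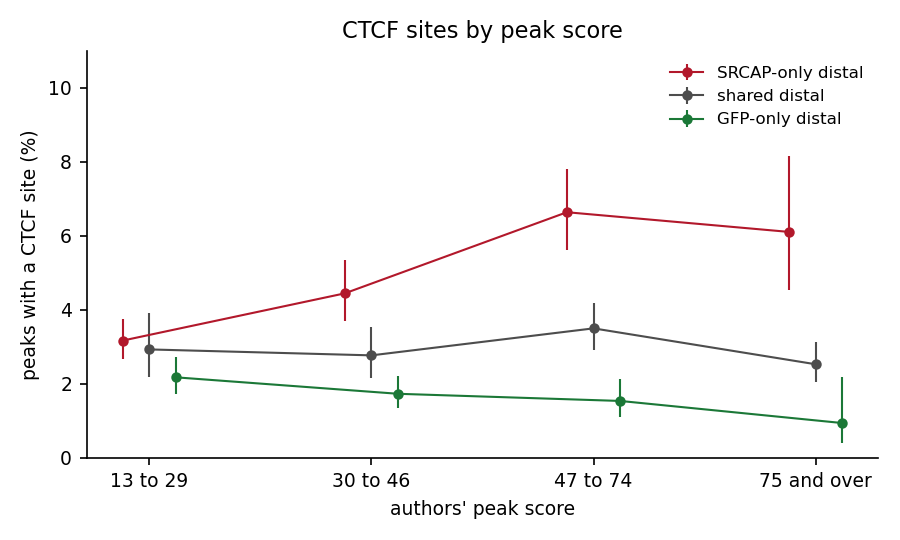
Percentage of distal peaks with an exact CTCF match in 200 bp at the midpoint, by the authors' peak score, with 95% Wilson intervals. SRCAP-only distal peaks rise from 3.17% at scores under 30 to 6.64% at 47 to 74, while shared and GFP-only distal peaks stay between 0.940 and 3.5%.

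CTCF sites of SRCAP-only distal peaks were densest at 75 to 100 bp on either side of the midpoint, with 73 and 76 per 25 bp. Bins within 50 bp of it held 45 to 50. In the 1 kb around SRCAP-only distal peaks there were 723 sites, with a median distance of 86.5 bp from the midpoint, and 193 of them lay within 50 bp, 258 at 50 to 100 bp and 176 at 100 to 150 bp. Of these sites 552 (76.3%, interval 73.1 to 79.3) were inside the called peak, and 355 were on the plus strand. The median distance was 99.5 bp at shared and 122.5 bp at GFP-only distal peaks. Sites inside the called peak made up 80.5% (interval 77.2 to 83.3) at shared and 54.4% at GFP-only distal peaks. Seen from the sites, 11187 exact CTCF matches were found in distal sequence, and 553 of them (4.94%, interval 4.56 to 5.36) lay in a SRCAP-only distal peak. A further 515 (4.6%, 4.23 to 5.01) lay in a shared and 278 (2.49%, 2.21 to 2.79) in a GFP-only distal peak. The intervals of SRCAP-only and shared distal peaks overlap.

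**Figure D3:**
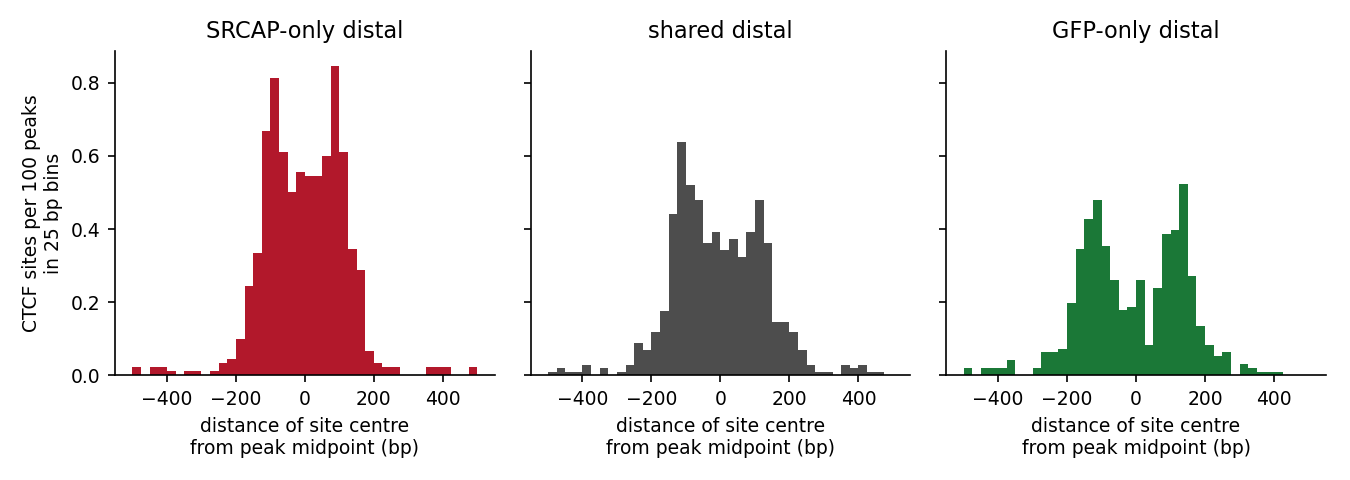
Number of exact CTCF matches per 100 peaks in bins of 25 bp, by distance of the site centre from the peak midpoint, for 3 classes of distal peaks. Sites form a hump on either side of the midpoint in each class, at a median distance of 86.5 bp for SRCAP-only, 99.5 bp for shared and 122.5 bp for GFP-only distal peaks.

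Peaks with a CTCF site differed from the other members in further ways. Only 7 of the 405 were mostly repeat-masked (1.73%, interval 0.840 to 3.52), against 15.4% of the rest. The nearest GFP peak was over 1 kb away for 394 of them (97.3%, interval 95.2 to 98.5), against 91.8% (91.2 to 92.4) of the rest. The distance to the nearest TSS was alike, with medians of 10004 and 10016 bp.

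REST sites were found at 21 peaks (0.234%, interval 0.153 to 0.357), 19.1-fold over the GC-weighted genome share of 0.0122%. Shared distal peaks held 7 (0.0686%) and GFP-only distal peaks 5 (0.0522%), so the excess was 0.165 points over shared (interval 0.0561 to 0.293) and 0.181 points over GFP-only distal peaks (0.0745 to 0.308). Of 619 exact REST matches in distal sequence, 28 lay in SRCAP-only, 14 in shared and 7 in GFP-only distal peaks. The highest score, 105, was that of chr14:63713242-63713540 in an intron of Xkr6, whose sequence is printed above, and the nearest GFP peak was 81562 bp away. All 21 lay over 1 kb from a GFP peak (interval 84.5 to 100%), beside 92.1% of all members. None was mostly repeat-masked (interval 0 to 15.5%), beside 14.8% of all members. Both intervals include the share of all members. The scores of the 21 ran from 23 to 105 with a median of 40. By midpoint, 9 of the 21 were intergenic (42.9%), near the 43.9% of all members.

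In 200 bp, the motifs of CpG-rich promoters had intervals that include the genome level. NRF1, a factor of housekeeping promoters, had an exact match at 4 peaks (0.0445%, interval 0.0173 to 0.114), against a GC-weighted share of 0.0686% and against 80 of the SRCAP-only promoter peaks (2.83%). The SRCAP-only distal share minus the promoter share was -2.79 points (interval -3.47 to -2.23). NFY (CCAATCAG) was at 0.968%, or 1.09-fold over the genome (interval 0.881 to 1.34), against 1.88% of shared distal peaks and 2.16% of SRCAP-only promoter peaks. ETS (CCGGAAGT) was at 0.278% (1.35-fold, interval 0.913 to 1.99) against 2.72% at SRCAP-only promoters, and the GC box SP/KLF (GGGGCGGGG) was at 0.923% (1.10-fold, 0.889 to 1.36) against 6.65%. CRE (TGACGTCA), the E-box CACGTG and GATA (AGATAAGA) were within 10% of the genome level, with intervals that include it, and a YY1 match was found at 1 peak. In 500 bp, NRF1 was at 1.58-fold over the genome (interval 1.04 to 2.39), against 0.648-fold (0.252 to 1.67) in 200 bp. The value in 200 bp rests on 4 peaks, and the intervals overlap. In the same 500 bp ETS was at 1.36-fold (1.06 to 1.74) and SP/KLF at 1.40-fold (1.23 to 1.59), while NFY was at 1.00-fold (0.873 to 1.16).

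Among motifs of enhancers and of the pluripotent state, ESRRB, AP-1 and TEAD were a little above the genome level, and the rare composite OCT4-SOX2 site was far above it on few matches. ESRRB (TCAAGGTCA), a nuclear receptor of naive stem cells, was at 63 peaks (0.701%, 1.47-fold, interval 1.15 to 1.87) and at 0.95% of GFP-only distal peaks. AP-1 (TGANTCA) was at 6.31% (1.18-fold, 1.09 to 1.28), and the difference from shared distal peaks was -0.871 points (interval -1.58 to -0.159). TEAD (ACATTCCA) was at 1.07% (1.28-fold, 1.05 to 1.56). The OCT4-SOX2 site was matched at 3 peaks, 35.8-fold over the genome (interval 12.2 to 105), the highest fold of the 15 motifs at these peaks, with 4 matches at shared and 2 at GFP-only distal peaks. ZNF143 was matched at 6, 8.48-fold over the genome (interval 3.89 to 18.5), with 4 at shared and 1 at GFP-only distal peaks. These counts are too few to rank the classes. Of the OCT4-SOX2 peaks, the one with the highest score (47) lay in an intron of Ebf1 at chr11:44841808-44841969.

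Repeated sequence made up a minority of the peaks and a larger share of the strongest. Of all SRCAP-only distal peaks, 3556 (39.6%) had no repeat-masked base, more than the 28.9% of shared and 29.6% of GFP-only distal peaks. At least 50% of the bases were masked in 1328 (14.8%, interval 14.1 to 15.5), against 17.3% of shared distal peaks, 14% of GFP-only distal peaks and 27.9% of distal windows of 200 bp. Masked throughout were 491 (5.46%), against 3.83% of shared and 2.37% of GFP-only distal peaks. The shares with no masked base and masked throughout depend on peak width, and SRCAP-only distal peaks were narrower than the other distal peaks. In a fixed 200 bp at the midpoint, 14.9% of SRCAP-only, 17.9% of shared and 14.8% of GFP-only distal peaks were mostly masked. The central 64 bases had another exact copy on the chromosomes of GRCm38 in 684 peaks (7.61%, interval 7.08 to 8.17). The share was 6.86% (6.39 to 7.37) for shared and 3.91% for GFP-only distal peaks. Among SRCAP-only distal peaks it rose from 4.42% at scores of 13 to 29 to 16.4% at 75 to 99, 36.9% at 100 to under 200 and 60% (21 of 35 peaks, interval 43.6 to 74.4) at 200 and over. From the lowest to the highest score quartile, the mostly masked share rose from 12.5 to 20.5% in SRCAP-only distal peaks. It rose from 13.3 to 26.4% in shared and from 11.9 to 17.5% in GFP-only distal peaks. With peaks of a single copy alone, the CTCF shares were 4.85, 3.16 and 1.84% for SRCAP-only, shared and GFP-only distal peaks.

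**Figure D4:**
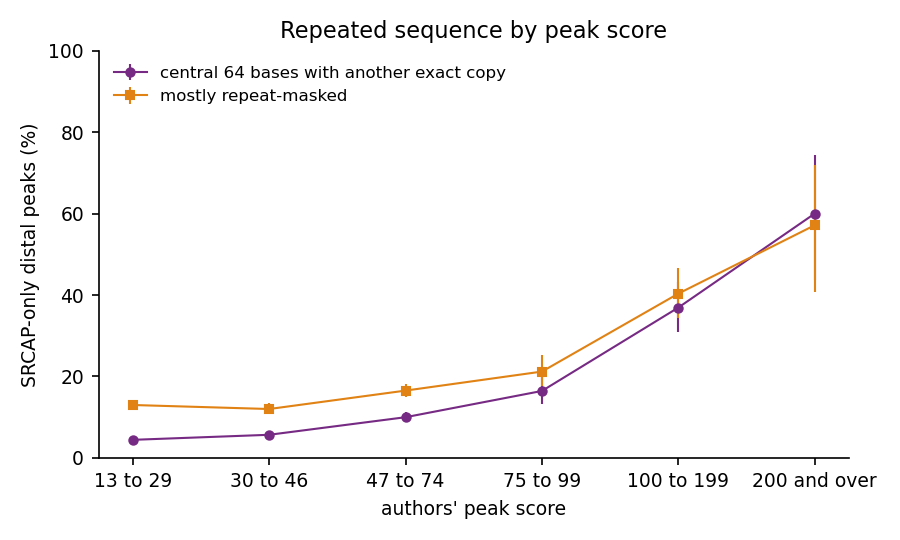
Percentage of SRCAP-only distal peaks whose central 64 bases have another exact copy on the chromosomes of GRCm38, and percentage with at least 50% repeat-masked bases, by the authors' peak score, with 95% Wilson intervals. Both rise with score, the first from 4.42 to 60%.

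The 12 peaks of highest score, from 247 to 1125, were of this mixed kind. The highest, chr6:49236456-49236615 (score 1125), lay in intergenic sequence at -21579 bp from the TSS of Igf2bp3 (minus means upstream), had a GFP peak 2644 bp away and its central 64 bases had no second exact copy on the assembled chromosomes. Its whole sequence is given because its score stands above that of all other members, and its letters resemble large-subunit ribosomal RNA on the opposite strand, a likeness known from background and not computed here.
chr6:49236456-49236615, plus strand, no motif in capitals: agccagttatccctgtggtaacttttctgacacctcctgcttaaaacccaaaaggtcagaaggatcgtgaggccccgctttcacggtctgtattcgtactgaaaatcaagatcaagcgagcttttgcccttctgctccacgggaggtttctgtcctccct
Next came chr17:70963671-70963876 (score 850) in an intron of the noncoding gene Gm26561, and chr10:130594748-130594992 (score 655), which was masked throughout and had 2 copies. Of the 12, 6 were masked throughout, 6 had more than 1 exact copy, 4 lay on chromosome 8 and 11 lay over 1 kb from a GFP peak. Among all members these shares were 5.46, 7.61, 12.3 and 92.1%, so the last count was near the share of all members. The copies numbered 7292 for chr9:16611623-16611856 (score 369) and 1570 for chr17:68529345-68529589 (score 268) in an intron of L3mbtl4. Among single-copy peaks of the 12 was chr8:14306770-14307153 (score 334), unmasked, in an intron of Dlgap2, which encodes a scaffold protein of synapses.

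Words of 8 bases were compared between the peaks and their flanks. Ranked by their share in the 200 bp at the midpoint over that 1 kb to either side, with at least 60 peaks holding the word, the first was AGCGGTCG (63 peaks, 15.7-fold) and the third ACCCGCAA (93 peaks, 11.6-fold), while CTCF-like words such as GAGGGCGC (130 peaks, 8.66-fold) came after. Around these words 2 longer tags, chosen after the ranking, were followed. ACCCGCAAG was at 86 peaks (0.957%), of which 79 were mostly masked, and AGCGGTCGC at 59 (0.656%), of which 57 were. Within 2 kb of the midpoint, successive copies of the first tag on 1 strand were spaced at 150 to 260 bp in 95.6% of 183 spacings, with a median of 206 bp, and those of the second in 94.2% of 86, with a median of 212 bp. Such tandem monomers are known from the promoters of young LINE-1 elements, and no repeat annotation was used here. The tags were not particular to these peaks, being at 0.588 and 0.804% of shared and at 0.679 and 0.605% of GFP-only distal peaks. Against the GC-weighted genome the first was at 1.52-fold (interval 1.23 to 1.87) and the second at 1.24-fold (0.959 to 1.59). The peaks of highest score with each tag are shown with the tag in capitals.
chr12:31045966-31046054, plus strand, intergenic, score 226, first tag: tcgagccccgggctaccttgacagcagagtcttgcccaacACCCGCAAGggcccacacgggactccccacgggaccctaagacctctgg
chr3:117286474-117286562, plus strand, intergenic, score 122, first tag: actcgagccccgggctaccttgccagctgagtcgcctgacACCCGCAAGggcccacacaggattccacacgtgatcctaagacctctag
chr5:17103019-17103107, minus strand, intergenic, score 130, second tag: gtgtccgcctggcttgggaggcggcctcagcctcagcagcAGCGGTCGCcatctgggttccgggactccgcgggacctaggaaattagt
chr6:24673733-24673821, plus strand, intergenic, score 113, second tag: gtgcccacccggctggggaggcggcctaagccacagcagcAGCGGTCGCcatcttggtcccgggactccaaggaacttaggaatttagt

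Chromosome 8 held 1104 of the peaks, or 9.20 per Mb of distal sequence against 3.65 per Mb on the other chromosomes, a ratio of 2.52. Among the others the density ran from 2.65 per Mb on chromosome 16 to 5.62 on chromosome 11. The excess was shared with the other distal peaks, with ratios of 2.39 for shared and 1.53 for GFP-only distal peaks, and SRCAP-only promoter peaks had 1.41. In bins of 10 Mb along chromosome 8 the count ran from 33 to 125, so no single bin held it. Chromosome 8 contributed 8.64% of the peaks with a CTCF site and 12.5% of those without, and without that chromosome the CTCF shares were 4.69, 2.82 and 1.81% for SRCAP-only, shared and GFP-only distal peaks. The part of copy number in the density was not tested.

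**Figure D5:**
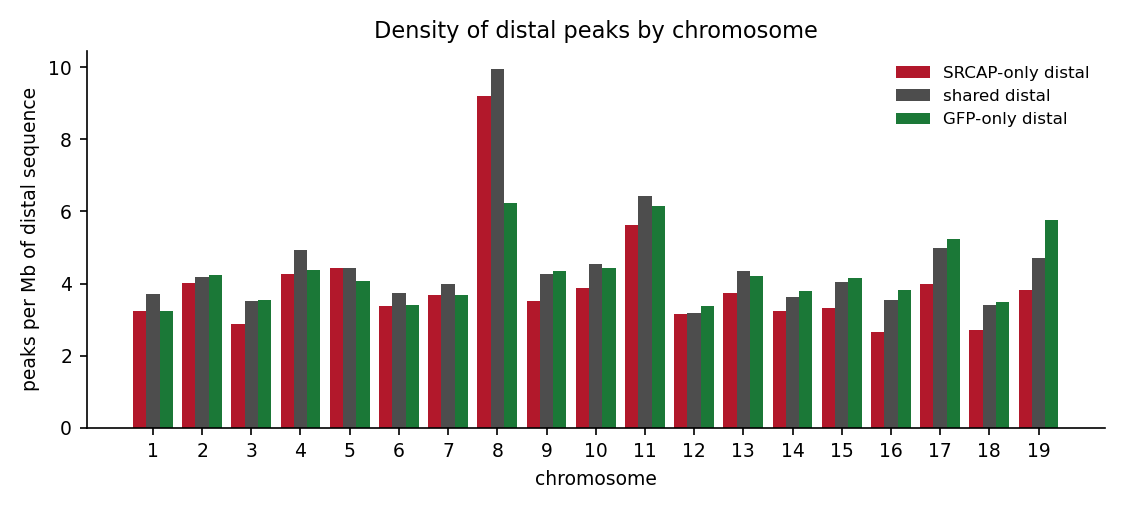
Distal peaks per Mb of distal sequence on each of chromosomes 1 to 19, for SRCAP-only, shared and GFP-only distal peaks. Chromosome 8 is the highest in all 3 classes, at 9.20 per Mb for SRCAP-only distal peaks against 2.65 to 5.62 per Mb elsewhere.

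Most members stood alone. With successive midpoints at most 5 kb apart taken as a group, 8197 peaks were single, 309 groups held 2 and 9 groups held 5 or more, and 794 peaks (8.83%, interval 8.26 to 9.44) had another within 5 kb, against 10.4% of shared and 10.1% of GFP-only distal peaks. The largest group, of 11 peaks with a median score of 92, lay at chr8:19705265-19735205 in 4930467E23Rik, and 7 of its peaks had further exact copies. Of the 5 largest groups, the other 4 were weak and of single-copy sequence. Rprd1b, a regulator of RNA polymerase II, held 9 at chr2:158051626-158068456 with scores of 14 to 40. Peak1, a pseudokinase, held 7 at chr9:56357240-56366926 with scores of 17 to 47. Sumo2, a ubiquitin-like modifier, held 6 at chr11:115523941-115533576 with scores of 23 to 40, and Rabgef1, an exchange factor of endosomal Rab5, held 6 at chr5:130190073-130194646 with scores of 18 to 29. The GFP list had no peak inside the Peak1, Sumo2 and Rabgef1 groups and 1 inside the Rprd1b group. Members overlap no GFP peak by the rule and lay at a median of 18792 bp from one. These groups spanned 4574 to 16831 bp, so the absence of GFP peaks inside them is no separate result. The whole Peak1 gene held 25 GFP peaks. A further 4 groups, of 5 peaks each, lay on chromosomes 14 and 8 and were stronger, with median scores of 82, 99, 119 and 148. Each held 2 to 4 peaks with further exact copies.

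Genes of stem cell identity and of lineage choice had SRCAP-only distal peaks nearby at shares whose intervals include that of all genes. Of 20807 protein-coding genes on these chromosomes, 10160 (48.8%) had a member in the gene or within 50 kb. The count was 17 of 26 pluripotency genes (65.4%, interval 46.2 to 80.6), 15 of 22 lineage genes (68.2%, 47.3 to 83.6), 10 of 23 imprinted genes (43.5%, 25.6 to 63.2), 5 of 9 SRCAP complex genes, 2 of 3 H2A.Z genes and 4 of 8 genes of CTCF and cohesin.

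Among pluripotency genes the highest score was 120, at a peak 1980 bp from the 5′ end of Utf1, a chromatin factor of stem cells. Pou5f1, which encodes OCT4, had a peak of score 72 at 33769 bp from its 5′ end, and Nanog had one of score 53 at -37918 bp, 589 bp from a GFP peak, and one of score 25 with a CTCF site at -46869 bp. Esrrb, a nuclear receptor of naive cells, had 5 members, of which 4 were intronic, with scores of 14 to 40, and the highest held a CTCF site. Tet1, a DNA demethylase, had an intronic peak of score 36 with an ESRRB match. Zfp42 (Rex1) had 1 of score 34 in an intron.

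Among lineage genes, T (Brachyury), a factor of mesoderm, had a peak of score 67 at 34581 bp, Hand1 one of score 60 and Lefty2, an inhibitor of Nodal signalling, one of score 60 at -44788 bp. Sox1, a factor of neural progenitors, had 4 members with scores of 21 to 57, and Meis1, Meis2 and Cdx2 had 3 each, with highest scores of 40, 50 and 42. Nodal had 3, one of which, at -18368 bp with a score of 23, held a CTCF site. Near H2afz, which encodes the main H2A.Z, peaks of score 55 and 47 lay at -30498 and 29705 bp from its 5′ end. H2afv, which encodes the other H2A.Z, had a peak of score 47 at 37873 bp from its 5′ end and an intronic one of score 34, and Ruvbl1, an ATPase of the SRCAP complex, one of score 29. At H19 and Igf2, an imprinted pair with CTCF sites between them, the single member within 50 kb had a score of 47, lay at -33081 bp from the 5′ end of H19 and held none of the motifs searched.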

How the data were processed

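CUT&RUN peak lists of 1 SRCAP antibody and 1 GFP antibody library were used. Per the labels, STAR, Picard and MACS2 were used on mm10 and dm6. The methods list tool versions for genomic data as a whole, and the settings and control for CUT&RUN are not given in the sources used here, and the methods describe unique mapping and removal of duplicates and blacklisted regions for ChIP-seq. The authors deposited 1 list per library with start, end, name and a whole-number score whose meaning is not stated, so no read count or signal was available. Peak ends lay within GRCm38 chromosome lengths.

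Peaks were compared by overlap of at least 1 bp and placed by midpoint with respect to 141767 GENCODE vM21 transcripts, with coding exon, UTR, other exon and intron taking precedence in that order (Python 3.11.15, numpy 2.4.6, pandas 2.3.3; plots matplotlib 3.10.9). Overlaps were checked against bedtools 2.31.1. On simulated data, the code for overlaps and promoter windows was compared with plain loops, and the motif search with planted copies of the ETS motif. The code for confidence intervals was not part of these checks. Repeat masking is the lower case of the RefSeq GRCm38 sequence. References were all distal windows of 200 or 500 bp, binned by GC in steps of 4 bases, and windows 1 kb to either side. Shares carry 95% Wilson intervals, differences Newcombe intervals and medians order-statistic intervals (scipy 1.17.1). With 1 library per antibody no test was made. No sequence of chromosome 18 was printed. Exact copies were counted on chromosomes 1 to 19, X, Y and M, on both strands.

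Regions named were the 12 of highest score, the highest with a motif, the highest at each listed gene and the 5 largest groups, with further CTCF, REST and repeat-tag sequences, lower-scoring peaks at listed genes and gene spans chosen after their values were seen. The members, gene lists and motifs were chosen with earlier results of these data known. Other settings were overlap rule, distance to a GFP peak, promoter window, score, chromosome 8, window width, repeat share and grouping distance. The subsets of width, masking, copy number and score for CTCF were chosen after the data were seen.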

Additional observations from a re-analysis of the deposited data

Results flagged for a closer look

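The report was limited to chromosomes 1 to 19. Outside them, SRCAP-only distal peaks were also listed on chromosome X, where there were 69 with a median score of 47 and a maximum of 312, and on chromosome Y, where there were 9 with a median score of 60. They were singled out because they lie in data that no comparison used, and no control library was used here to set a background level. None was listed on the mitochondrial chromosome.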

How the results depend on the processing

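No paired analysis was possible because the SRCAP and the GFP antibody were each used for a single library. Of 61 alternative values for 11 results, 36 stayed within the 95% interval of the value reported, or for the count of peaks within 1.5 times, and 25 moved. Keeping members at or above the median score of the SRCAP list left 2692 peaks, with a median width of 229.5 bp, a median score of 60, 49.7% intergenic, a median GC content of 48.2%, 1.26% CpG-island-like, 19.8% mostly repeat-masked, 6.50% with a CTCF match and 5.76% with another member within 5 kb. A reciprocal overlap of at least 50% as the rule for sharing gave a median width of 211 bp, 71.1% over 1 kb from a GFP peak and 11.3% with another within 5 kb. Counting a GFP peak within 500 bp as shared gave 97.2% over 1 kb away. A promoter window of 2500 bp on either side gave 92.9% over 1 kb away, 47.5% intergenic, a median GC content of 48.2%, 1.02% CpG-island-like, 16% mostly masked and 7.98% grouped. Windows of 200 bp gave a median GC content of 50.0% and 2.62% CpG-island-like, and windows of 500 bp gave 7.74% with CTCF and 0.245% with NRF1. Requiring 80% masked bases gave 8.63%, and grouping at 2 kb gave 4.34%. Leaving out chromosome 8 moved none of the 11 past its interval, the count staying within 1.5 times. Depth was unknown, exact matches miss weaker sites, and 1 library per antibody leaves the antibody and the library impossible to tell apart.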

Other observations

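Scores of the SRCAP-only distal peaks sat on few values. The 8991 peaks had 161 distinct scores, and the 10 commonest, among them 23 (1078 peaks), 29 (1063), 34 (867), 18 (825) and 40 (726), covered 68.4%. Ranks by score within the list are therefore full of ties.

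Some protein-coding genes held at least 4 SRCAP-only distal peaks and at most 1 GFP peak in the gene span. After Rprd1b and Sumo2 came Xkr6 with 6 members over 214 kb and 1 GFP peak, Rnf150, on chromosome 8, with 5 and no GFP peak, and Tns1, a focal adhesion protein, with 5 and 1 GFP peak. Cdh8, a cadherin on chromosome 8, and Sdk2, an adhesion molecule, had 4 members each over 392 and 291 kb. Dnm3, a dynamin, and Ksr1, a scaffold of the MAP kinase cascade, had 4 each over 496 and 133 kb. Neither Cdh8 and Sdk2 nor Dnm3 and Ksr1 held a GFP peak. These genes were chosen after their values were seen, and the mirror count, with the antibodies exchanged, is not given. Members stood at 9.20 per Mb of distal sequence on chromosome 8 and 3.65 per Mb elsewhere, so a long gene can hold several. By count, Fgfr2 (21 members over an annotated span of 2961 kb) and Peak1 (13 over 217 kb, with 25 GFP peaks) led among genes outside chromosome 8. On chromosome 8, Gm20388, annotated over 4435 kb, had 67, the most of any gene. It was followed there by Cdh13 with 12 over 1041 kb, Zfhx3 with 11 over 1019 kb and Nrg1 with 10 over 1069 kb.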
